A study of Homo sapiens with 16 samples.

Results

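The comparison described here set HUH6 cells given low oxygen and SLC-0111 together against HUH6 cells given neither. HUH6 is an established human hepatoblastoma cell line, a tumour of immature liver cells. The libraries compared were chosen by label: the 4 libraries of cells kept in hypoxia (oxygen partial pressure of 1%) with 100 µM SLC-0111, and the 4 libraries of cells kept in normoxia with the solvent DMSO, that is 8 of the 16 libraries of the series. The other 8 came from cells with a single exposure, 4 in hypoxia with DMSO and 4 in normoxia with 100 µM SLC-0111. All groups were exposed for 48 h and total RNA was sequenced. The groups are called hypoxia SLC-0111, hypoxia DMSO, normoxia SLC-0111 and normoxia DMSO. SLC-0111, also sold as U-104, is described in the labels as blocking carbonic anhydrases IX and XII. The design asked how the transcriptome of these cells answers to the compound at either oxygen level, and this contrast adds what the cells looked like under both exposures relative to under none. The labels call the 4 libraries of a group technical replicates, and a single cell line was used, so the p-values speak of the variation among technical libraries, which may be smaller than that among cultures grown apart.

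Cells sense oxygen through prolyl hydroxylases, which need it to mark the alpha subunits of the hypoxia-inducible factors (HIF) for destruction. In hypoxia the factors persist, bind short DNA elements and raise genes of glucose uptake, glycolysis, vessel growth, matrix modification and pH control. CA9 is among the best known of these genes in tumours. It encodes a membrane enzyme with its active site outside the cell, which turns carbon dioxide into bicarbonate and protons and so helps glycolytic cells keep their inside neutral, and CA12 encodes a related membrane enzyme.

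Total counts were 19.51, 32.88, 29.08 and 49.25 M (M is 1000000 counts) in hypoxia SLC-0111 replicates 1 to 4, against 22.91, 25.17, 30.08 and 31.60 M in normoxia DMSO replicates 1 to 4. A count of 0 allows up to 3 counts, which is 0.0609 to 0.154 counts per 1000000 counts (CPM) in the hypoxia SLC-0111 libraries and 0.0949 to 0.131 CPM in the normoxia DMSO libraries. Protein-coding genes held 88.4 to 92.1% of counts in hypoxia SLC-0111 and 89.1 to 90.8% in normoxia DMSO. On the first principal component (47.9% of the variance) hypoxia SLC-0111 lay between -44.6 and -35.3 and normoxia DMSO between 47.3 and 48.4. Hypoxia SLC-0111 replicate 4, the deepest library, was the one nearest to normoxia. Among the single-exposure libraries, hypoxia DMSO replicate 1 lay at -27.3 on that component and hypoxia DMSO replicate 3, with 3.30 M counts, at -96.3 on the second (18.6%), apart from the others of its group. Normoxia SLC-0111 replicate 4 differed from its group in composition. Protein-coding genes held 80.6% of its counts (others 86.8 to 90.2%) and mitochondrial genes 15.3% (others 8.7 to 11.2%). That library enters every comparison with normoxia SLC-0111 below. The 12 markers of liver and hepatoblastoma cells summed to 16265 to 16514 CPM in hypoxia SLC-0111 and 18186 to 18666 CPM in normoxia DMSO. Liver markers were thus high in both groups, although DLK1 had 1 count in each. APOB led the sum, with 1038081 counts in hypoxia SLC-0111 and 940116 in normoxia DMSO. The sum therefore cannot tell 1 liver cell line from another.

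Levels are counts per 1000000 (CPM) of the TMM-scaled library size, per library or as mean ± SD (n = 4 libraries per group). Changes are log2 fold changes of hypoxia SLC-0111 over normoxia DMSO ± SE, with p adjusted by Benjamini and Hochberg over 18385 tested genes, all from edgeR's quasi-likelihood test. A gene was called, and is said to have risen or fallen, at an adjusted p under 0.05. In bulk RNA, a change in the number of cells of a kind and a change in RNA per cell cannot be told apart.

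Of 18385 tested genes, 10324 (56.2%) were called, 5264 (28.6%) higher and 5060 (27.5%) lower in hypoxia SLC-0111. At least 2-fold differences were called for 2154 genes (11.7%), of which 1566 (8.52%) rose and 588 (3.2%) fell. The 4 hypoxia SLC-0111 libraries and the 4 normoxia DMSO libraries did not overlap at 10084 genes (54.8%). With library size alone in place of TMM the median log2 fold change of all genes moved to -0.10, and the split became 4149 higher and 6318 lower, so 39.6% of the called genes were higher in place of 51.0%. Counts of small changes in either direction are relative to the scaling. The shares of all tested genes given here are the background for the counts of list members below.

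The sequences below show the letters that the factors named in these results are known to read, in genes on which the results turn. They are the 250 bases before the start of each gene as RefSeq annotates it on GRCh38.p14, 5′ to 3′ on the gene's strand. GENCODE starts may differ: the end of the CA9 window, with its marked core, lies inside the GENCODE coordinates given for CA9 below. Capitals mark ACGTG or GCGTG, the core of the hypoxia response element, in CA9 and BHLHE40; TGATGNAA, the composite element of C/EBP and ATF factors, in ATF3; TTTGAA, the cell cycle homology region of mitotic genes, in PLK1; and TGCACNC or TGCGCNC, the core of the metal response element, in MT2A. Both strands were searched, so capitals may show the reverse complement.
CA9 (chr9:35673678-35673927, plus strand): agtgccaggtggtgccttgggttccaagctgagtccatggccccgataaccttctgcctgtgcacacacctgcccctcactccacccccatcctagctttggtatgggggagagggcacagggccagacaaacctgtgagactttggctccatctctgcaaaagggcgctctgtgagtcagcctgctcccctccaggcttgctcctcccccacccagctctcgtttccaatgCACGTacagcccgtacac
BHLHE40 (chr3:4979187-4979436, plus strand): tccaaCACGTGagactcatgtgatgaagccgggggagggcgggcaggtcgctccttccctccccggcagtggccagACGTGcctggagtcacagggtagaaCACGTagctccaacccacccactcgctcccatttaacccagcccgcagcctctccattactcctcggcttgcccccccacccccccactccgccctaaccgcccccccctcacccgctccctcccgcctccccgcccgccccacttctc
ATF3 (chr1:212565157-212565406, plus strand): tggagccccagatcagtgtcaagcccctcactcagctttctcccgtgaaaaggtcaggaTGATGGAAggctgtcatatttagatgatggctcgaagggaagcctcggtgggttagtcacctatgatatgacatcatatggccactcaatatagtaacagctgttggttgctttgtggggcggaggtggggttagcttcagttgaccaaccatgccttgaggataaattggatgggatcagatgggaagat
PLK1 (chr16:23678639-23678888, plus strand): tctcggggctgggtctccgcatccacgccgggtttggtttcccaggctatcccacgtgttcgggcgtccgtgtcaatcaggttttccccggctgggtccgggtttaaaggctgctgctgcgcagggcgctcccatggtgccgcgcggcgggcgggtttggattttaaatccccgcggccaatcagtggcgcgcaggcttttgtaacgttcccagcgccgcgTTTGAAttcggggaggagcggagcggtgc
MT2A (chr16:56608334-56608583, plus strand): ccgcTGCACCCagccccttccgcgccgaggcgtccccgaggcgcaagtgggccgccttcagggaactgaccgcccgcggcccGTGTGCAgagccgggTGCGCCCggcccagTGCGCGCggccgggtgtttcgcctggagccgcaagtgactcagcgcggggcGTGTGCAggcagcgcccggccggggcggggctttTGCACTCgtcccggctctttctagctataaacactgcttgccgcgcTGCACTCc
The CA9 window held 1 hypoxia core, and that of BHLHE40 held 4, of which 2 overlap on opposite strands. Over the 250 bases before and the 50 bases after the start, a hypoxia core was found in 24 of the 28 hypoxia-induced genes with a promoter in the table (85.7%), against 48.4% of all 27305 promoters. The ATF composite was in 9 of 31 genes of the ATF4 and amino acid response (29%), against 3.67% of all promoters, the cell cycle element in 17 of 26 mitotic genes (65.4%), against 15.4%, and the metal core in 4 of 7 genes of metallothioneins and zinc transport (57.1%), against 29.3%. The antioxidant core TGACNNNGC was in 5 of 18 NRF2 targets (27.8%), against 13.6%. These matches describe letters and not binding.

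Of the compound's named targets, both transcripts were higher in hypoxia SLC-0111. CA9 (chr9:35673856-35681159, GRCh38) had 26.5, 30, 26.8 and 22.9 CPM in hypoxia SLC-0111, against 0.0426, 0, 0.160 and 0.0306 CPM in normoxia DMSO. The groups did not overlap, and normoxia DMSO held 7 counts of the gene in all against 3293 in hypoxia SLC-0111. The ratio of the group totals was 395 (95% interval 191 to 983, counting error only), with a log2 fold change of 8.64 ± 0.25 (adjusted p = 1.03e-17). Hypoxia DMSO averaged 56.2 CPM and normoxia SLC-0111 0.0477 CPM, so the mean under both exposures lay under that of hypoxia without the compound. That difference is given by the averages only.

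CA12 (chr15:63321378-63382161) had 6.76, 6.35, 5.48 and 5.54 CPM in hypoxia SLC-0111, against 2.17, 2.53, 3.08 and 2.84 CPM in normoxia DMSO, again without overlap. It rose by a log2 fold change of 1.16 ± 0.12 (adjusted p = 1.32e-08). Hypoxia DMSO averaged 5.97 CPM and normoxia SLC-0111 5.05 CPM, so either exposure alone already gave most of the level seen with both. On the log2 scale the combined change lay 0.95 ± 0.17 below the sum of the single changes (difference -0.95, adjusted p = 0.00127). Of the 15 carbonic anhydrase genes, 12 were tested, 5 rose and 1 fell. The called share was 50%, against 56.2% of all tested genes. CA3 and CA5B, a cytosolic and a mitochondrial form, rose to 2.01 ± 0.378 and 4.84 ± 0.44 CPM in hypoxia SLC-0111, against 1.09 ± 0.278 and 3.38 ± 0.234 CPM in normoxia DMSO. CA4, another membrane form, fell to 12.0 ± 0.256 CPM in hypoxia SLC-0111, against 16.2 ± 1.18 CPM in normoxia DMSO (log2 fold change -0.44 ± 0.09, adjusted p = 0.000134).

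Hypoxia-induced genes formed the strongest block. Of 36 listed genes 35 were tested and 34 rose, 31 of them at least 2-fold, while ANGPTL4 was not called (log2 fold change 0.37, adjusted p = 0.173). Their median log2 fold change was 2.12, against 0.00 over all tested genes, beside 2.47 for hypoxia DMSO and 0.08 for normoxia SLC-0111 over the same normoxia DMSO libraries. For 10 of the 35 the combined change lay below the sum of the single changes, a call made for 3.13% of all tested genes. STC1, a secreted glycoprotein, had 1059 counts in hypoxia SLC-0111 against 5 in normoxia DMSO, a ratio of 178 (95% interval 76 to 549, counting error only). BHLHE40, a repressor of transcription, had 302, 306, 300 and 213 CPM in hypoxia SLC-0111, against 10.6, 11.1, 11.3 and 10.2 CPM in normoxia DMSO (log2 fold change 4.70 ± 0.26, adjusted p = 6.45e-09). Hypoxia SLC-0111 replicate 4 was the lowest of its group for this gene, and still far above every normoxia DMSO library.

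A further set of members was singled out after their values were seen, because each stands for a known arm of the response. PDK1, a kinase that inhibits pyruvate dehydrogenase, had 225, 236, 223 and 213 CPM in hypoxia SLC-0111, against 10.7, 10.1, 9.95 and 10.8 CPM in normoxia DMSO (log2 fold change 4.43 ± 0.12, adjusted p = 5.45e-16). BNIP3, a trigger of mitophagy, averaged 656 ± 48.7 CPM in hypoxia SLC-0111 and 72.8 ± 2.21 CPM in normoxia DMSO. It lay 0.54 ± 0.11 below the sum of the single changes (difference -0.54, adjusted p = 0.0049). VEGFA, the vessel growth factor, averaged 195 ± 22.4 CPM in hypoxia SLC-0111 and 48.9 ± 0.804 CPM in normoxia DMSO, a 3.97-fold rise. DDIT4, a brake on mTOR signalling, averaged 307 ± 79.8 CPM in hypoxia SLC-0111 and 13.7 ± 0.235 CPM in normoxia DMSO, and NDRG1 averaged 1737 ± 172 and 127 ± 4.35 CPM in the same order of groups. ADM, which encodes the vasodilator adrenomedullin, averaged 89.0 ± 16.9 CPM in hypoxia SLC-0111 and 9.39 ± 0.444 CPM in normoxia DMSO.

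**Figure D1:**
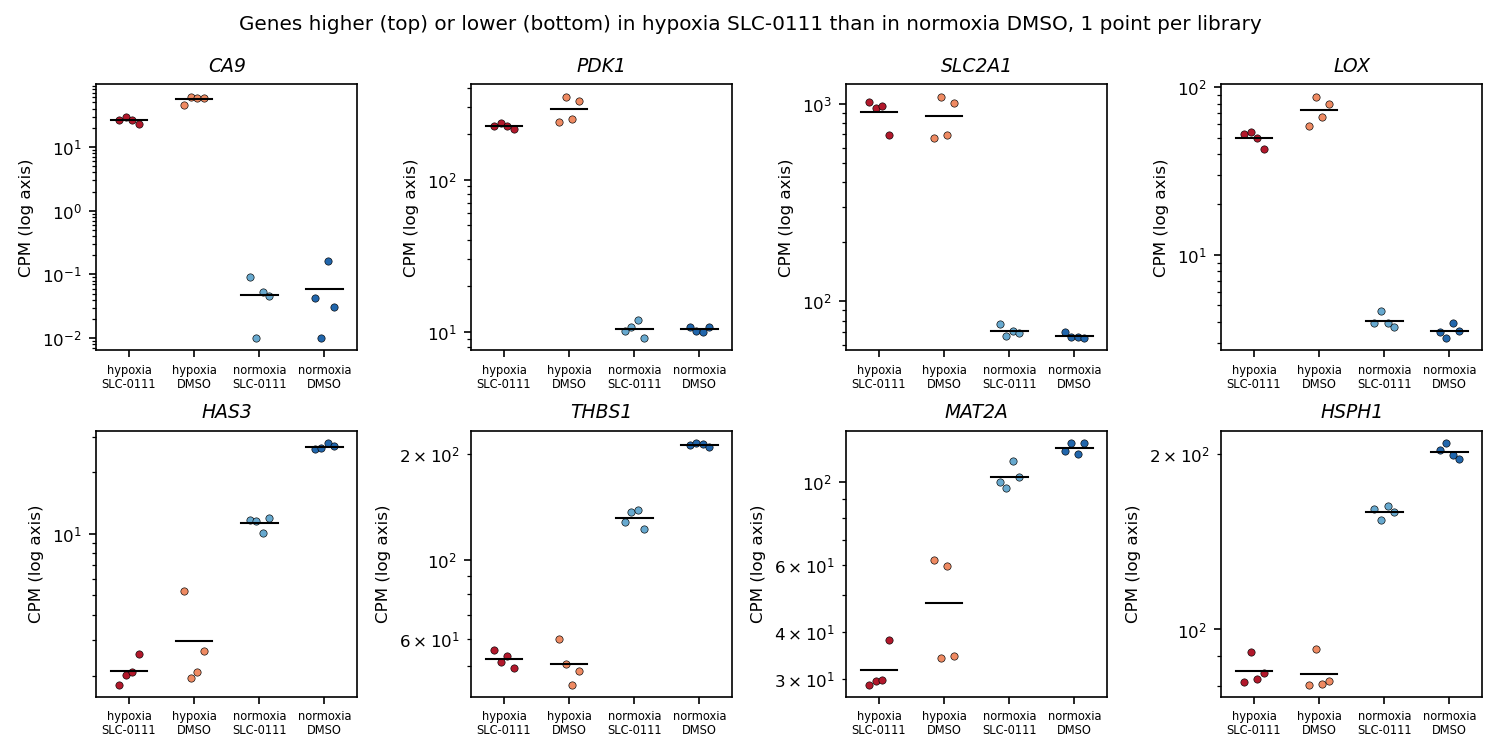
CPM on a log axis in each library of the 4 groups, with the mean as a bar, for 4 genes that rose in hypoxia SLC-0111 over normoxia DMSO (CA9, PDK1, SLC2A1, LOX) and 4 that fell (HAS3, THBS1, MAT2A, HSPH1). Libraries with no count of CA9 are drawn at 0.01 CPM. In all 8 panels the 4 hypoxia SLC-0111 libraries and the 4 normoxia DMSO libraries are apart, and the mean of hypoxia DMSO lies nearer to that of hypoxia SLC-0111.

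The sensors and subunits of the pathway moved unevenly. Of 10 tested members 5 rose (50%, against 28.6% of all tested genes) and 3 fell (30%, against 27.5%). EGLN1, the main HIF prolyl hydroxylase, averaged 247 ± 18.3 CPM in hypoxia SLC-0111 and 62.4 ± 3.03 CPM in normoxia DMSO (log2 fold change 1.99 ± 0.11, adjusted p = 4.4e-11). CITED2, which competes with HIF for a coactivator, averaged 450 ± 17.8 CPM in hypoxia SLC-0111 and 151 ± 4.92 CPM in normoxia DMSO. EPAS1, which encodes HIF-2 alpha, fell to 206 ± 1.82 CPM in hypoxia SLC-0111, against 297 ± 4.35 CPM in normoxia DMSO. HIF1A itself, which is controlled mainly at the protein, was not called (log2 fold change 0.11 ± 0.05, adjusted p = 0.0842), with 216, 227, 233 and 221 CPM in hypoxia SLC-0111 against 211, 206, 206 and 209 CPM in normoxia DMSO. It passed the threshold under 8 of the 27 alternatives, among them the fit of the 8 libraries alone (adjusted p = 0.00307). ARNT2, a partner of the alpha subunits, was called at 0.55 ± 0.20 (adjusted p = 0.0208), and the call was lost with library size alone (0.45, adjusted p = 0.0534) and without hypoxia SLC-0111 replicate 2 (0.50, adjusted p = 0.0592) or normoxia DMSO replicate 4 (0.45, adjusted p = 0.0777).

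Most transcripts of glucose uptake and glycolysis were higher. Of 21 tested glycolysis and glucose transport genes 16 rose, 13 of them at least 2-fold, and 3 fell (SLC2A2, PFKM and LDHB), with a median log2 fold change of 1.26. That median was 1.65 in hypoxia DMSO and -0.15 in normoxia SLC-0111 over the same normoxia DMSO libraries. SLC2A1, the GLUT1 transporter, had 1015, 954, 972 and 692 CPM in hypoxia SLC-0111, against 69.9, 66.1, 66.0 and 65.2 CPM in normoxia DMSO, a 13.6-fold rise (log2 fold change 3.77 ± 0.17, adjusted p = 2.55e-10). HK2, which phosphorylates glucose, averaged 210 ± 22.7 CPM in hypoxia SLC-0111 and 18.8 ± 1.07 CPM in normoxia DMSO. LDHA, which turns pyruvate into lactate, averaged 2238 ± 181 CPM in hypoxia SLC-0111 and 436 ± 10.7 CPM in normoxia DMSO. SLC2A3, the GLUT3 transporter, averaged 15639 CPM in hypoxia SLC-0111 and 2843 CPM in normoxia DMSO, although reads may be shared with its near copy SLC2A14. SLC2A2, the transporter of mature hepatocytes, fell to 86.4 ± 1.95 CPM in hypoxia SLC-0111, against 144 ± 2.84 CPM in normoxia DMSO. PGK1 rose 3.25-fold and lay below the sum of the single changes (difference -0.33 ± 0.07, adjusted p = 0.0071).

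Of 30 tested nuclear genes for respiratory chain and ATP synthase subunits, 20 fell and 10 were not called, with a median log2 fold change of -0.21. That median was -0.26 in hypoxia DMSO and -0.07 in normoxia SLC-0111. ATP5MC1, a subunit of the ATP synthase ring, fell to 23.6 ± 1.52 CPM in hypoxia SLC-0111, against 42.7 ± 2.59 CPM in normoxia DMSO (log2 fold change -0.86 ± 0.12, adjusted p = 5.12e-06). CYC1, ATP5F1B and UQCRFS1 fell by smaller amounts, with log2 fold changes of -0.49, -0.39 and -0.39. Of the 13 mRNAs of the mitochondrial genome 11 fell and 2 were not called, with a median of -0.60. Their medians in hypoxia DMSO and normoxia SLC-0111 were -0.96 and -0.03. MT-ND2 had 667, 697, 786 and 1193 CPM in hypoxia SLC-0111, against 1793, 1669, 1503 and 1711 CPM in normoxia DMSO. Hypoxia SLC-0111 replicate 4 lay nearest to the normoxia DMSO libraries, and the groups did not overlap (log2 fold change -1.0 ± 0.25, adjusted p = 0.00471). Without that replicate the value was -1.22.

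Acid-base and lactate transporters changed in both directions, with 5 of 14 tested genes higher (35.7%) and 4 lower (28.6%). These shares were near the 28.6% higher and 27.5% lower of all tested genes. SLC16A3, the lactate exporter MCT4, rose to 21.1 ± 2.29 CPM in hypoxia SLC-0111, against 9.58 ± 0.643 CPM in normoxia DMSO (log2 fold change 1.13 ± 0.08, adjusted p = 3.98e-11). SLC4A8, a bicarbonate importer, rose to 76.1 ± 6.76 CPM in hypoxia SLC-0111, against 47.2 ± 1.05 CPM in normoxia DMSO. SLC9A2, a sodium-proton exchanger, rose to 3.21 ± 0.102 CPM in hypoxia SLC-0111, against 1.90 ± 0.333 CPM in normoxia DMSO.

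**Figure D2:**
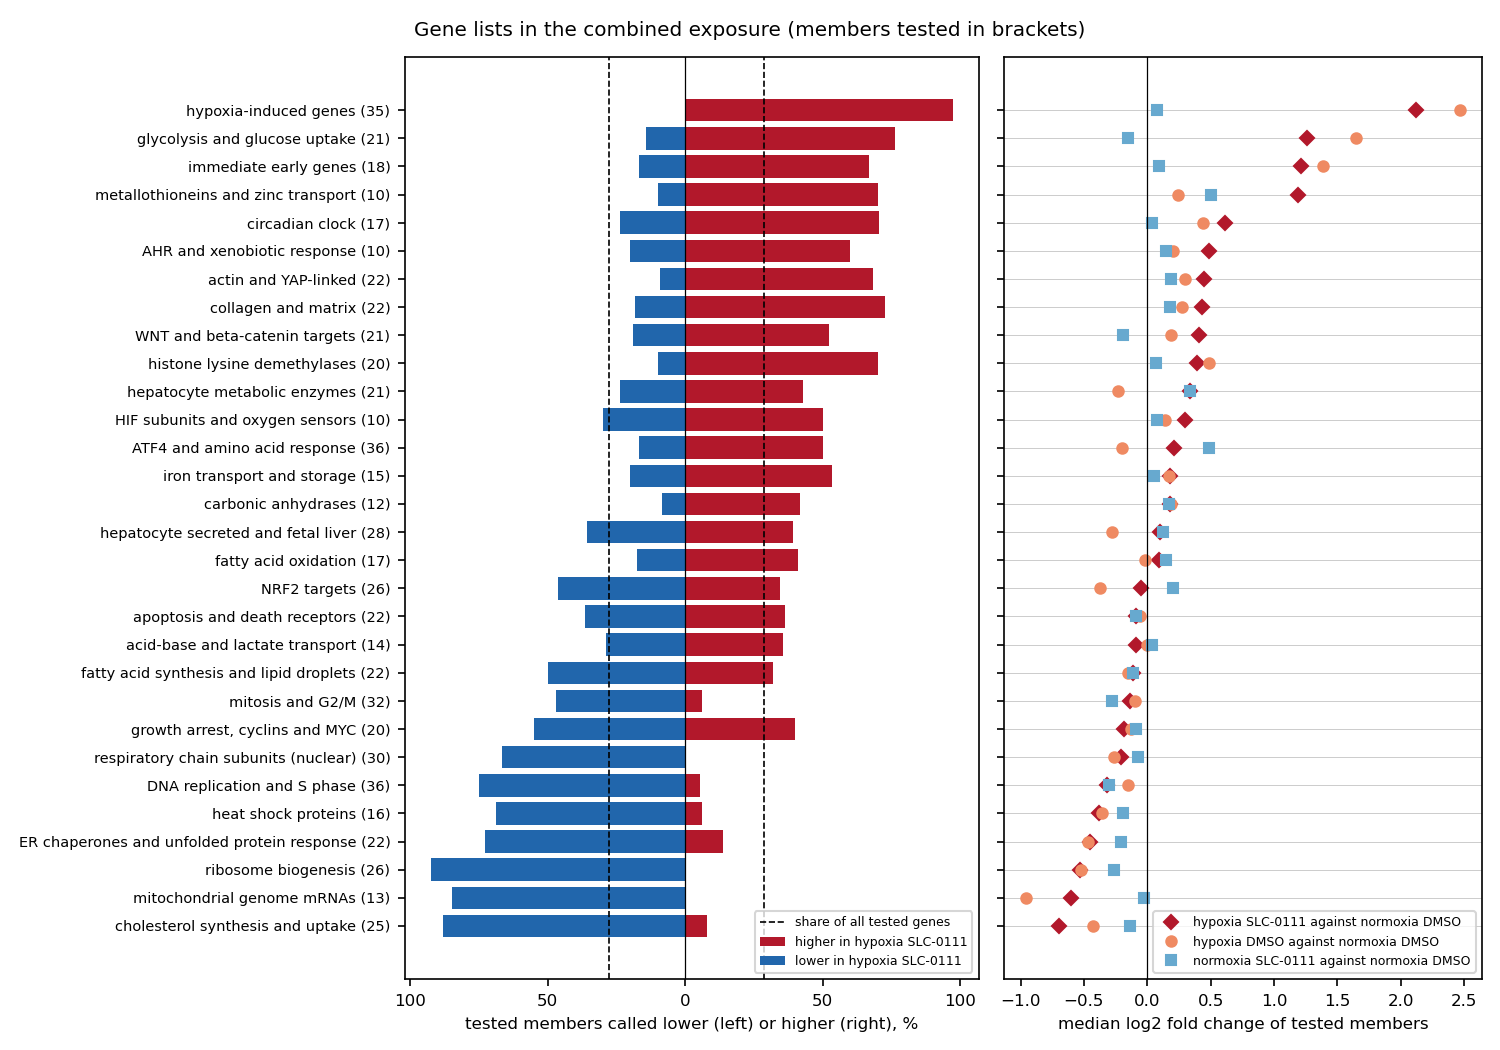
For 30 gene lists, the share of tested members called higher (right) or lower (left) in hypoxia SLC-0111 than in normoxia DMSO, with the share of all tested genes as dashed lines, and the median log2 fold change of hypoxia SLC-0111, hypoxia DMSO and normoxia SLC-0111 over normoxia DMSO. Hypoxia-induced genes stand at 97.1% higher, cholesterol genes at 88% lower and ribosome biogenesis genes at 92.3% lower. The 3 medians of a list share the normoxia DMSO libraries.

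Genes of cholesterol synthesis and uptake were lower as a group. Of 25 tested members 22 fell, 5 of them at least 2-fold, and 2 rose, and the median log2 fold change was -0.70, against -0.43 in hypoxia DMSO and -0.14 in normoxia SLC-0111 over the same normoxia DMSO libraries. For 10 of the 25 the level was below that of each of the other 3 groups, which holds for 0.707% of all tested genes. Over all tested genes such calls fell from 130 to 51 without hypoxia SLC-0111 replicate 3. How many of the 10 remain in such fits was not tested. HSD17B7, an enzyme of the pathway, had 17.4, 17.9, 16.3 and 19.1 CPM in hypoxia SLC-0111, against 39.6, 38.5, 38.2 and 38.9 CPM in normoxia DMSO (log2 fold change -1.13 ± 0.08, adjusted p = 5.12e-11). The groups did not overlap. Hypoxia DMSO averaged 25.6 CPM and normoxia SLC-0111 30.4 CPM, and the smallest of the 3 log2 differences was -0.48 (joint adjusted p = 0.0025), a call that ended without both hypoxia DMSO libraries that stand apart (adjusted p = 0.051).

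The enzymes MVD and NSDHL of the same pathway fell in hypoxia SLC-0111. MVD averaged 125 ± 6.6 CPM in hypoxia SLC-0111 and 265 ± 12.3 CPM in normoxia DMSO, and NSDHL 32.2 ± 0.847 and 67.4 ± 6.03 CPM in the same 2 groups. Among members singled out after their values were seen, HMGCS1 fell to 77.1 ± 1.23 CPM in hypoxia SLC-0111, against 146 ± 4.21 CPM in normoxia DMSO. INSIG1, a sterol-regulated brake on the pathway, had a log2 fold change of -0.70. SREBF2, which encodes the transcription factor of the pathway, was slightly higher (log2 fold change 0.16 ± 0.05, adjusted p = 0.00738), a call that ended under scaling by library size alone (0.07, adjusted p = 0.348).

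Genes of fatty acid synthesis and lipid droplets changed in both directions. Of 22 tested members 7 rose, 11 fell and 4 were not called. HILPDA, which inhibits triglyceride breakdown, averaged 22.8 ± 2.47 CPM in hypoxia SLC-0111 and 6.16 ± 0.696 CPM in normoxia DMSO, while hypoxia DMSO averaged 40.9 CPM. PLIN2, a droplet coat protein, averaged 132 ± 16.7 CPM in hypoxia SLC-0111 and 54.3 ± 2.27 CPM in normoxia DMSO. CIDEC, which enlarges droplets, averaged 7.30 ± 0.527 CPM in hypoxia SLC-0111 and 2.26 ± 0.188 CPM in normoxia DMSO, and stood above each of the other 3 groups (joint adjusted p = 0.0223). That joint call was lost with library size alone (0.0661), and without hypoxia SLC-0111 replicates 1, 2 or 3 (0.069, 0.0898 and 0.0601) or the unnumbered hypoxia DMSO library (0.0798). AGPAT2, an acyltransferase of phosphatidic acid synthesis, and G0S2, another inhibitor of lipolysis, rose 3.44-fold and 2.73-fold. Of the other droplet coat proteins PLIN4 rose (log2 fold change 0.42), PLIN3 fell (-0.18, adjusted p = 0.0131) and PLIN5 was not called (0.09, adjusted p = 0.764). The synthetic enzymes FASN and GPAM were lower. FASN had 1118, 1111, 1130 and 1087 CPM in hypoxia SLC-0111, against 1857, 1849, 1839 and 1890 CPM in normoxia DMSO (log2 fold change -0.74 ± 0.06, adjusted p = 1.16e-09). GPAM, the first enzyme of glycerolipid synthesis, averaged 50.7 ± 2.39 CPM in hypoxia SLC-0111 and 130 ± 4.11 CPM in normoxia DMSO, with 32.1 CPM in hypoxia DMSO.

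Of 17 tested genes of fatty acid oxidation 7 rose and 3 fell, and the median of 0.09 fell to 0.00 with library size alone. The called share of 58.8% was near the 56.2% of all tested genes. ACADVL and ACAA1, a mitochondrial and a peroxisomal enzyme, rose 1.72-fold and 1.59-fold. ECI2 averaged 4.54 ± 0.792 CPM in hypoxia SLC-0111 and 2.07 ± 0.378 CPM in normoxia DMSO.

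Metallothioneins, small proteins that bind zinc and copper, were among the genes highest under both exposures. Of 14 listed genes of metallothioneins and zinc transport 10 were tested, 7 rose and 1 fell, and the median log2 fold change was 1.19, beside 0.24 in hypoxia DMSO and 0.50 in normoxia SLC-0111. MT2A, whose promoter is printed above, had 82.7, 78.2, 86.7 and 69.9 CPM in hypoxia SLC-0111, against 23.7, 20.5, 22.5 and 20.1 CPM in normoxia DMSO (log2 fold change 1.87 ± 0.08, adjusted p = 2.43e-15). Hypoxia DMSO averaged 38.9 CPM and normoxia SLC-0111 44.0 CPM, and the combined change differed from the sum of the single changes by 0.05 ± 0.11 (adjusted p = 0.865). For 4 of the 10 tested members the level was above each of the other 3 groups, which holds for 1.97% of all tested genes. MT1F averaged 40.3 ± 3.33 CPM in hypoxia SLC-0111 and 12.3 ± 0.317 CPM in normoxia DMSO, MT1G 10.3 ± 1.14 and 2.82 ± 0.358 CPM, and MT1X 1.97 ± 0.286 and 0.443 ± 0.0391 CPM. These genes are near copies of each other and may exchange reads. SLC30A10, an exporter of manganese, rose to 6.41 ± 0.774 CPM in hypoxia SLC-0111, against 1.81 ± 0.38 CPM in normoxia DMSO, with 6.84 CPM in hypoxia DMSO.

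**Figure D3:**
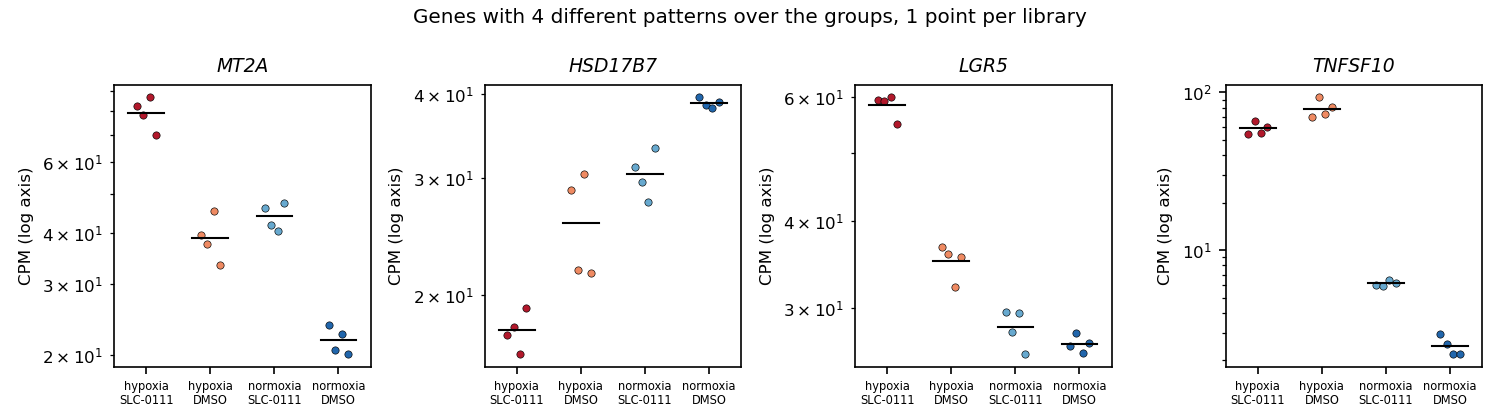
CPM on a log axis in each library, with the mean as a bar, for MT2A, HSD17B7, LGR5 and TNFSF10. MT2A is raised in both single-exposure groups and highest in hypoxia SLC-0111, HSD17B7 is lowest there, LGR5 stands above each other group, and TNFSF10 in hypoxia SLC-0111 (59.0 CPM on average) lies under hypoxia DMSO (78.9 CPM).

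The amino acid response, in which the factor ATF4 raises genes of amino acid synthesis and transport, was mixed. Of 36 tested members 18 rose, 7 of them at least 2-fold, and 6 fell, with a median log2 fold change of 0.21, beside -0.20 in hypoxia DMSO and 0.49 in normoxia SLC-0111. For 7 of them the combined change lay below the sum of the single changes, a call made for 3.13% of all tested genes. ATF3, a stress-induced factor, had 155, 147, 148 and 99.7 CPM in hypoxia SLC-0111, against 21.7, 20, 18.8 and 18.9 CPM in normoxia DMSO (log2 fold change 2.79 ± 0.29, adjusted p = 2.94e-06). GDF15, a secreted stress signal, averaged 396 ± 82.3 CPM in hypoxia SLC-0111 and 66.5 ± 4.29 CPM in normoxia DMSO. STC2 averaged 411 ± 43 CPM in hypoxia SLC-0111 and 121 ± 6.89 CPM in normoxia DMSO, and lay below the sum (difference -1.0 ± 0.15, adjusted p = 0.000954). ASNS, which makes asparagine, averaged 2.67 ± 0.385 CPM in hypoxia SLC-0111 and 0.801 ± 0.201 CPM in normoxia DMSO. ATF4 mRNA itself was not called, with 439, 409, 445 and 378 CPM in hypoxia SLC-0111 against 450, 428, 408 and 414 CPM in normoxia DMSO, and the 2 groups overlapped.

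SLC7A11, the cystine transporter shared by the ATF4 and NRF2 responses, had 38.3, 34.4, 36.7 and 33.0 CPM in hypoxia SLC-0111, against 19.2, 21.1, 19.3 and 18.6 CPM in normoxia DMSO. Normoxia SLC-0111 averaged 61.2 CPM and hypoxia DMSO 17.0 CPM, and the combined change lay below the sum (difference -0.63 ± 0.10, adjusted p = 0.000485). DDIT3, the factor CHOP, averaged 17.8 ± 4.65 CPM in hypoxia SLC-0111 and 6.72 ± 0.523 CPM in normoxia DMSO. Of 26 tested targets of NRF2, the factor of the oxidative stress response, 9 rose and 12 fell. These were 34.6% and 46.2%, against 28.6% higher and 27.5% lower of all tested genes. ABCC3 and OSGIN1 rose 2.76-fold and 2.39-fold, while NQO1 fell to 1.56 ± 0.402 CPM in hypoxia SLC-0111, against 3.86 ± 0.629 CPM in normoxia DMSO, and SRXN1 to 1.46 ± 0.171 against 2.94 ± 0.703 CPM.

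Of 10 tested genes of the xenobiotic response 6 rose (60%, against 28.6% of all tested genes) and 2 fell (20%, against 27.5%). TIPARP, a target of the aryl hydrocarbon receptor, averaged 102 ± 17 CPM in hypoxia SLC-0111 and 24.0 ± 1.3 CPM in normoxia DMSO. CYP1A1, the classical target of that receptor, had 70.9, 66.0, 74.6 and 61.4 CPM in hypoxia SLC-0111, against 50.8, 47.2, 43.3 and 45.8 CPM in normoxia DMSO. Its averages of 28.6 CPM in hypoxia DMSO and 125 CPM in normoxia SLC-0111 lay on either side of these. NR1I3 and NR1I2, the nuclear receptors CAR and PXR, rose 6.26-fold and 1.62-fold.

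Most tested transcripts of chaperones and of ribosome biogenesis were lower. Of 22 tested chaperones and unfolded protein response genes of the endoplasmic reticulum 16 fell, 3 rose (HERPUD1, EDEM1 and DNAJB9) and 3 were not called, with a median of -0.45. Their medians in hypoxia DMSO and normoxia SLC-0111 were -0.47 and -0.21. SDF2L1, CRELD2 and MANF fell furthest, to 19.2 ± 0.973, 23.3 ± 1.38 and 47.5 ± 1.44 CPM in hypoxia SLC-0111, against 56.7 ± 4.16, 54.7 ± 2.69 and 105 ± 5.23 CPM in normoxia DMSO. HSPA5, the master chaperone BiP, fell to 722 ± 14 CPM in hypoxia SLC-0111, against 1282 ± 30 CPM in normoxia DMSO (log2 fold change -0.83 ± 0.07, adjusted p = 2.29e-09). HERPUD1, a factor of protein disposal at the same membrane, rose 2.01-fold. Of 16 heat shock proteins 11 fell, 1, CRYAB, rose and 4 were not called. HSPH1 had 81.3, 91.6, 82.1 and 84.2 CPM in hypoxia SLC-0111, against 203, 209, 199 and 196 CPM in normoxia DMSO (log2 fold change -1.25 ± 0.05, adjusted p = 1.1e-15), and DNAJA1 and HSPA8 fell by 1.11 and 0.88 on the log2 scale. Of 26 ribosome biogenesis genes 24 fell and 2 were not called, with a median of -0.53, beside -0.52 in hypoxia DMSO and -0.26 in normoxia SLC-0111. NOP16 fell to 7.16 ± 0.753 CPM in hypoxia SLC-0111, against 17.6 ± 0.615 CPM in normoxia DMSO, and RRS1, RRP9 and NOP2 had log2 fold changes of -1.18, -1.05 and -1.24.

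**Figure D4:**
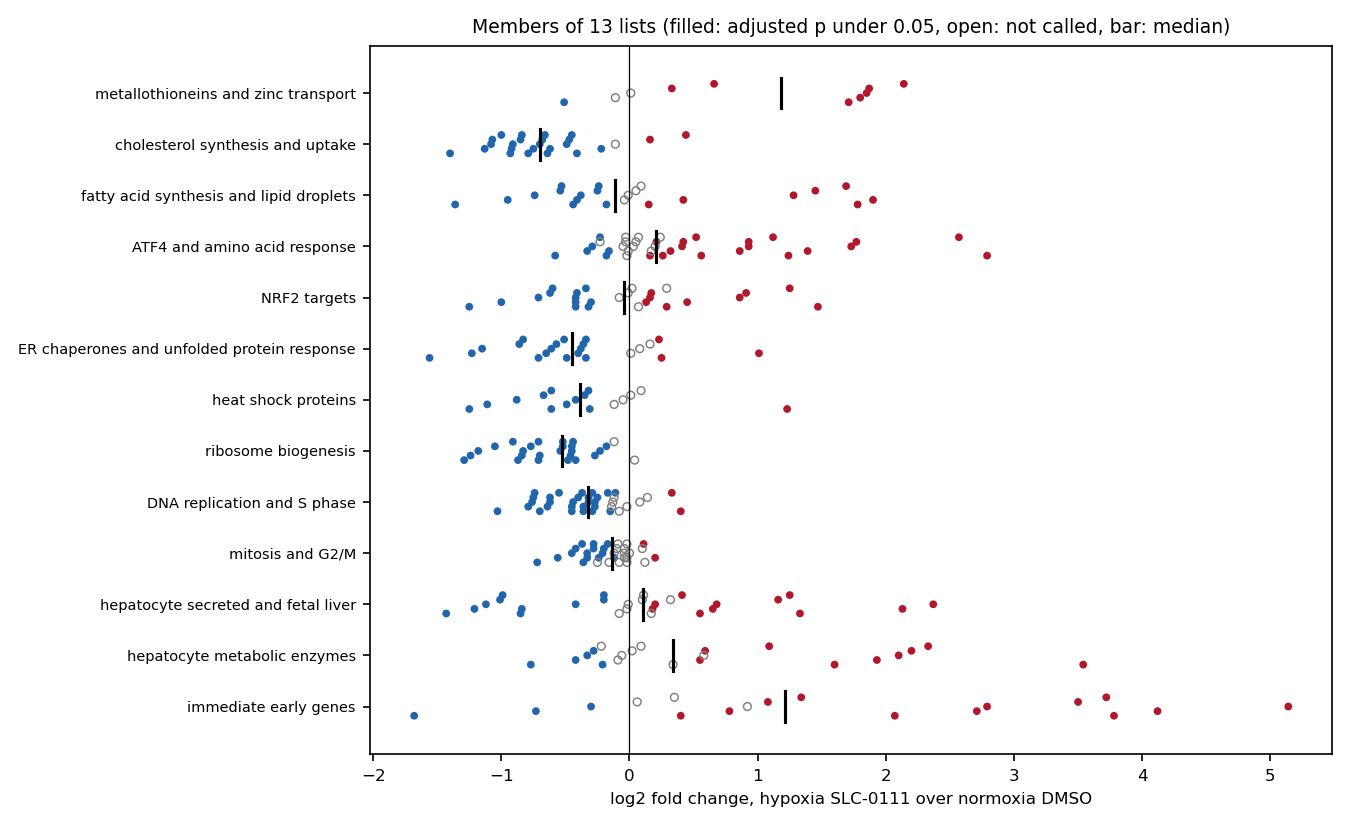
Log2 fold change of hypoxia SLC-0111 over normoxia DMSO for each tested member of 13 lists, with called members filled (higher red, lower blue), members not called open and the median as a bar. Cholesterol, ribosome biogenesis and replication genes lie mostly left of 0, with medians of -0.70, -0.53 and -0.32, and metallothioneins and immediate early genes mostly right, with medians of 1.19 and 1.21.

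Growth genes moved by small amounts. Of 36 tested replication genes 27 fell and 2 rose, with a median of -0.32, beside -0.15 in hypoxia DMSO and -0.30 in normoxia SLC-0111. CDC6, FEN1 and GINS2, which load or follow the replication fork, had log2 fold changes of -0.79, -0.76 and -0.75, and GINS3 fell to 3.58 ± 0.624 CPM in hypoxia SLC-0111, against 7.49 ± 0.558 CPM in normoxia DMSO. Of 32 mitotic genes 15 fell, 2 rose and 15 were not called, and with library size alone 23 fell. Called were 53.1% of these genes, against 56.2% of all tested genes, and lower 46.9%, against 27.5%. Their median was -0.14, beside -0.10 in hypoxia DMSO and -0.28 in normoxia SLC-0111, and for 8 of them the combined change lay above the sum of the single changes, a call made for 2.87% of all tested genes. CCNB1, the cyclin of mitotic entry, had 154, 154, 165 and 163 CPM in hypoxia SLC-0111, against 270, 263, 255 and 259 CPM in normoxia DMSO (log2 fold change -0.72 ± 0.08, adjusted p = 6.48e-08). PLK1, the mitotic kinase whose promoter is printed above, averaged 69.6 ± 4.53 CPM in hypoxia SLC-0111 and 89.8 ± 3.3 CPM in normoxia DMSO, with 63.4 CPM in normoxia SLC-0111. BIRC5, CENPA and CENPE fell by 0.56, 0.45 and 0.42 on the log2 scale. MKI67 and TOP2A, 2 common markers of cycling cells, were not called (adjusted p = 0.133 and 0.674), and the 2 groups overlapped for both. MKI67 passed the threshold with library size alone (-0.20, adjusted p = 0.00819), in the 8 libraries with the replicate block (-0.09, adjusted p = 0.033) and without hypoxia SLC-0111 replicate 4 (-0.15, adjusted p = 0.0255).

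Among 20 genes of growth arrest, cyclins and MYC, 8 rose and 11 fell. GADD45B, a stress-induced growth brake, averaged 78.7 ± 19 CPM in hypoxia SLC-0111 and 9.25 ± 1.06 CPM in normoxia DMSO. MXI1, an antagonist of MYC, averaged 97.2 ± 6.92 CPM in hypoxia SLC-0111 and 23.8 ± 1.97 CPM in normoxia DMSO. CDKN2B and BTG1 rose 2.11-fold and 2.00-fold. MYC fell to 72.0 ± 8.17 CPM in hypoxia SLC-0111, against 82.9 ± 2.48 CPM in normoxia DMSO (log2 fold change -0.21 ± 0.06, adjusted p = 0.00844), and the call was lost without hypoxia SLC-0111 replicate 2 (adjusted p = 0.0707). Of 22 genes of apoptosis 8 rose and 8 fell, 36.4% each way. This was not far from the 28.6% higher and 27.5% lower of all tested genes. BIRC3, an inhibitor of caspases, and BIK, a trigger of apoptosis, rose to 1.31 ± 0.304 and 2.16 ± 0.45 CPM in hypoxia SLC-0111, against 0.341 ± 0.133 and 1.06 ± 0.178 CPM in normoxia DMSO. BID, which carries the death receptor signal to mitochondria, fell by 0.62 on the log2 scale.

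Liver products went both ways. Of 28 tested secreted liver proteins 11 rose (39.3%, against 28.6% of all tested genes) and 10 fell (35.7%, against 27.5%). C3, the central complement protein, had 86.2, 85.6, 85.8 and 76.8 CPM in hypoxia SLC-0111, against 15.7, 15.5, 16.5 and 16.7 CPM in normoxia DMSO (log2 fold change 2.37 ± 0.05, adjusted p = 6.73e-21). Hypoxia DMSO averaged 47.0 CPM and normoxia SLC-0111 39.0 CPM, so C3 stood above each other group (joint adjusted p = 3.15e-10). APOC3, an apolipoprotein of triglyceride-rich particles, did too (joint adjusted p = 3.7e-06), with 552 ± 21.5 CPM in hypoxia SLC-0111 and 126 ± 2.6 CPM in normoxia DMSO. VTN rose 2.52-fold and TF, the iron carrier transferrin, 2.24-fold. The 3 fibrinogen chains, of which FGA and FGB were singled out after their values were seen, all fell, with log2 fold changes of -1.43 (FGG), -1.21 (FGA) and -0.85 (FGB). ALB fell to 38.3 ± 2.12 CPM in hypoxia SLC-0111, against 76.8 ± 1.77 CPM in normoxia DMSO, and AFP, the fetal albumin and serum marker of this tumour, to 528 ± 11.1 against 708 ± 2.3 CPM. HNF4A and FOXA2, factors of liver identity, rose 1.51-fold and 1.71-fold.

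Of 21 tested metabolic enzymes of hepatocytes 9 rose (42.9%, against 28.6% of all tested genes) and 5 fell (23.8%, against 27.5%). PCK1, the gatekeeper of gluconeogenesis, had 13.6, 13.6, 13.6 and 12.7 CPM in hypoxia SLC-0111, against 2.73, 3.30, 2.79 and 2.81 CPM in normoxia DMSO (log2 fold change 2.20 ± 0.13, adjusted p = 5.87e-13). ARG1 and OTC of the urea cycle rose to 2.70 ± 0.323 and 1.34 ± 0.125 CPM in hypoxia SLC-0111, against 0.641 ± 0.296 and 0.444 ± 0.0249 CPM in normoxia DMSO. HPD, of tyrosine breakdown, averaged 45.6 ± 2.33 CPM in hypoxia SLC-0111 and 21.4 ± 1.03 CPM in normoxia DMSO, above each other group (joint adjusted p = 0.00024).

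Targets of WNT signalling, the pathway that mutated beta-catenin switches on in most hepatoblastomas, were partly higher. Of 21 tested genes 11 rose and 4 fell, with a median of 0.41, beside 0.19 in hypoxia DMSO and -0.19 in normoxia SLC-0111. For 7 of them the combined change lay above the sum of the single changes, and 4 stood above each other group. These calls were made for 2.87% and 1.97% of all tested genes. LGR5, the stem cell receptor for R-spondins, had 59.5, 59.3, 60.0 and 54.9 CPM in hypoxia SLC-0111, against 26.5, 27.6, 25.9 and 26.7 CPM in normoxia DMSO (log2 fold change 1.13 ± 0.05, adjusted p = 1.87e-14). Its averages of 35.1 CPM in hypoxia DMSO and 28.2 CPM in normoxia SLC-0111 gave a combined change 0.63 ± 0.08 above the sum (adjusted p = 3.36e-05). TBX3, a repressor of transcription, averaged 862 ± 73.9 CPM in hypoxia SLC-0111 and 273 ± 5.28 CPM in normoxia DMSO, and SLC1A2, a glutamate transporter, 52.3 ± 2.94 and 16.9 ± 0.394 CPM. AXIN2, a feedback inhibitor of the pathway, averaged 164 ± 8.12 CPM in hypoxia SLC-0111 and 94.6 ± 2.39 CPM in normoxia DMSO. DKK1, a secreted inhibitor, fell to 7.40 ± 0.692 CPM in hypoxia SLC-0111, against 20.1 ± 1.87 CPM in normoxia DMSO, and GLUL, glutamine synthetase, to 99.1 ± 3.57 against 190 ± 1.29 CPM.

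Of 22 tested collagen and matrix genes 16 rose and 4 fell. LOX, which crosslinks collagen, had 52.3, 54.4, 49.8 and 42.9 CPM in hypoxia SLC-0111, against 3.49, 3.19, 3.91 and 3.52 CPM in normoxia DMSO (log2 fold change 3.81 ± 0.13, adjusted p = 1.18e-15). PLOD2, a collagen lysyl hydroxylase, averaged 173 ± 11.5 CPM in hypoxia SLC-0111 and 19.1 ± 0.721 CPM in normoxia DMSO, and LOXL2 had 142 counts in hypoxia SLC-0111 against 29 in normoxia DMSO. HAS3, a hyaluronan synthase, fell furthest of the protein-coding genes named by rule, with 1.81, 2.02, 2.09 and 2.56 CPM in hypoxia SLC-0111 against 26.0, 26.3, 27.9 and 27.1 CPM in normoxia DMSO (log2 fold change -3.62 ± 0.17, adjusted p = 1.8e-12). Of 22 actin and YAP-linked genes 15 rose and 2 fell. ANKRD1 averaged 269 ± 53.4 CPM in hypoxia SLC-0111 and 27.5 ± 3.86 CPM in normoxia DMSO, CCN1 299 ± 66.1 and 74.2 ± 3.8 CPM, and AMOTL2 798 ± 76.9 and 261 ± 5.56 CPM. THBS1, of the same list, fell to 52.5 ± 2.63 CPM in hypoxia SLC-0111, against 212 ± 2.73 CPM in normoxia DMSO.

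Most tested immediate early genes, which cells switch on soon after a signal, were higher after 48 h in hypoxia SLC-0111 than in normoxia DMSO. Of 18 tested members 12 rose, 10 of them at least 2-fold, and 3 fell, with a median of 1.21. That median was 1.39 in hypoxia DMSO and 0.09 in normoxia SLC-0111. Above each other group stood 0 members, near the 1.97% of all tested genes for a list of 18. JUN had 733, 727, 714 and 513 CPM in hypoxia SLC-0111, against 41.0, 39.0, 39.0 and 36.1 CPM in normoxia DMSO (log2 fold change 4.12 ± 0.33, adjusted p = 2.2e-07). FOS had 53.7, 51.3, 45.4 and 30.9 CPM in hypoxia SLC-0111, against 1.62, 1.27, 1.35 and 0.948 CPM in normoxia DMSO (log2 fold change 5.14 ± 0.45, adjusted p = 5.59e-07). ZFP36, which destabilises mRNAs, and DUSP1, a MAP kinase phosphatase, rose 13.8-fold and 13.2-fold, and KLF4 11.3-fold. For each of these 5 genes hypoxia SLC-0111 replicate 4 was the lowest of its group, and without it JUN stood at 4.23 and FOS at 5.29 on the log2 scale. What set that replicate apart was not tested.

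Of 17 tested clock genes 12 rose and 4 fell, and 4 stood above each other group, which holds for 1.97% of all tested genes. NR1D1, the repressor REV-ERB alpha, had 27.4, 25.7, 32.0 and 19.4 CPM in hypoxia SLC-0111, against 8.05, 8.21, 6.83 and 8.84 CPM in normoxia DMSO (log2 fold change 1.70 ± 0.19, adjusted p = 2.21e-06). Hypoxia DMSO averaged 10.5 CPM and normoxia SLC-0111 8.47 CPM. NFIL3 averaged 85.2 ± 10.9 CPM in hypoxia SLC-0111 and 21.0 ± 0.568 CPM in normoxia DMSO, and BHLHE41 had 138 counts in hypoxia SLC-0111 against 7 in normoxia DMSO, a ratio of 16.6 (95% interval 7.82 to 41.9, counting error only). Of 20 histone lysine demethylases, enzymes that need oxygen, 14 rose and 2 fell. KDM3A, KDM7A, KDM6B and KDM4B rose 3.85-fold, 3.11-fold, 2.25-fold and 2.20-fold. Of 15 genes of iron transport and storage 8 rose (53.3%, against 28.6% of all tested genes) and 3 fell (20%, against 27.5%). HMOX1, which breaks down haem, averaged 433 ± 24.5 CPM in hypoxia SLC-0111 and 230 ± 12.6 CPM in normoxia DMSO, and SLC11A2 155 ± 5.08 and 87.8 ± 3.23 CPM. TFR2, a transferrin receptor of the liver, rose to 2.53 ± 0.16 CPM in hypoxia SLC-0111, against 1.65 ± 0.268 CPM in normoxia DMSO.

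The largest rises by rule, outside the lists, were in genes of varied roles. AQP10, a water and glycerol channel, had 56.9, 69.7, 57.5 and 53.2 CPM in hypoxia SLC-0111, against 0.0426, 0.115, 0.128 and 0.0611 CPM in normoxia DMSO, a ratio of 623 (95% interval 339 to 1301, counting error only). GABRA2, a subunit of the GABA-A receptor, had 1691 counts in hypoxia SLC-0111 against 2 in normoxia DMSO, a ratio of 710 with a wide interval of 196 to 5866. PNCK, a calmodulin-dependent kinase, had 3394 counts against 10 in the same 2 groups. FGD5, which activates CDC42, averaged 47.3 ± 4.47 CPM in hypoxia SLC-0111 and 0.649 ± 0.196 CPM in normoxia DMSO. NPPB, which encodes a natriuretic peptide, averaged 167 ± 33.8 CPM in hypoxia SLC-0111 and 3.67 ± 0.487 CPM in normoxia DMSO, and LCN15, a lipocalin, 604 ± 79.6 and 22.6 ± 2.9 CPM. LGI4 and GNRH2, both secreted, rose 44.3-fold and 31.3-fold. For all of these the hypoxia SLC-0111 and normoxia DMSO libraries did not overlap, since the rule asked for it.

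The largest falls were smaller. MAT2A, which makes the methyl donor S-adenosylmethionine, had 28.9, 29.6, 29.7 and 38.1 CPM in hypoxia SLC-0111, against 121, 127, 119 and 127 CPM in normoxia DMSO (log2 fold change -1.96 ± 0.17, adjusted p = 3.69e-07). Without hypoxia SLC-0111 replicate 4, which was the highest of its group, the value was -2.07. SGK1, a kinase of ion transport, averaged 6.70 ± 0.513 CPM in hypoxia SLC-0111 and 25.6 ± 0.766 CPM in normoxia DMSO. FKBP4, a partner of HSP90, averaged 12.3 ± 0.548 CPM in hypoxia SLC-0111 and 40.4 ± 1.08 CPM in normoxia DMSO, and lay below each other group (joint adjusted p = 0.0198). Its joint call was lost without a low-count filter (0.0906), with the replicate block (0.0945), without hypoxia SLC-0111 replicates 1, 2 or 3 (0.0685, 0.0572 and 0.0838), and without hypoxia DMSO replicate 1 (0.0758) or the unnumbered library of that group (0.0548). PIK3R3, a regulatory subunit of PI3 kinase, RND2 and TENT5C, a poly(A) polymerase, fell 4.75-fold, 4.63-fold and 3.63-fold. The transcription factor genes SOX18 and FOXJ1, and BEND3, a repressor of transcription, fell 3.84-fold, 3.32-fold and 3.34-fold.

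Genes whose level lay outside that of every other group were fewer. The level in hypoxia SLC-0111 was beyond each of the other 3 groups, by the largest of the 3 p-values, at 493 genes (2.68%), above them at 363 and below them at 130. This count is unstable: it was 283, 289 and 263 without hypoxia SLC-0111 replicates 1, 2 and 3, and 286 without the 2 hypoxia DMSO libraries that stand apart. The genes below each other group numbered 60, 54 and 51 without these hypoxia SLC-0111 replicates, and 51 without both hypoxia DMSO libraries. MS4A10, a membrane protein, had 5.63, 6.48, 6.63 and 6.31 CPM in hypoxia SLC-0111, against averages of 2.72 CPM in hypoxia DMSO, 1.66 CPM in normoxia SLC-0111 and 0.324 CPM in normoxia DMSO (smallest log2 difference 1.28, joint adjusted p = 2.55e-06). ST3GAL1, a sialyltransferase, averaged 18.7 CPM in hypoxia SLC-0111, against 7.90, 7.39 and 3.23 CPM in hypoxia DMSO, normoxia SLC-0111 and normoxia DMSO. SEMA3G, a secreted semaphorin, averaged 23.7 CPM in hypoxia SLC-0111, against 10.6, 8.11 and 3.72 CPM in the other groups in that order. PGLYRP2, a liver-secreted amidase of bacterial cell walls, and NR1I3 also stood above each other group, with 19.1 and 12.6 CPM in hypoxia SLC-0111 and 2.10 and 1.98 CPM in normoxia DMSO.

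CRYAB, a small heat shock protein, had 39.0, 32.3, 34.0 and 20 CPM in hypoxia SLC-0111, against averages of 13.2 CPM in hypoxia DMSO, 15.0 CPM in normoxia SLC-0111 and 13.3 CPM in normoxia DMSO. Its joint call (adjusted p = 0.0132) was lost without hypoxia DMSO replicate 1 (0.0697), without both hypoxia DMSO libraries that stand apart (0.148), with the replicate block (0.11) and with the protein-coding share as covariate (0.0931). That of DLX3, a homeobox gene (adjusted p = 0.012), was lost without hypoxia DMSO replicate 1 (0.0621), without both libraries (0.146) and with limma-voom (0.0971). Below each other group were EIF5 and RHBDL1. EIF5, an initiation factor of translation, averaged 115 ± 3.61 CPM in hypoxia SLC-0111, against averages of 182 CPM in hypoxia DMSO, 304 CPM in normoxia SLC-0111 and 309 CPM in normoxia DMSO. Its combined change lay below the sum of the single changes (difference -0.64 ± 0.07, adjusted p = 2.77e-06). RHBDL1, a rhomboid-like protein, averaged 2.81 CPM in hypoxia SLC-0111, against 5.25, 6.08 and 6.59 CPM in hypoxia DMSO, normoxia SLC-0111 and normoxia DMSO. ZNF594, GPR75, IRX3, BRICD5 and AMIGO2 were also called, at 1.74 to 3.22 CPM in hypoxia SLC-0111. Each of these calls was lost in at least 1 fit that left out a library. That of IRX3 was lost without hypoxia SLC-0111 replicates 1, 2 or 3 (0.0917, 0.119 and 0.152). It was also lost without hypoxia DMSO replicates 1 or 3 (0.471 and 0.0842), and in several other such fits.

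**Figure D5:**
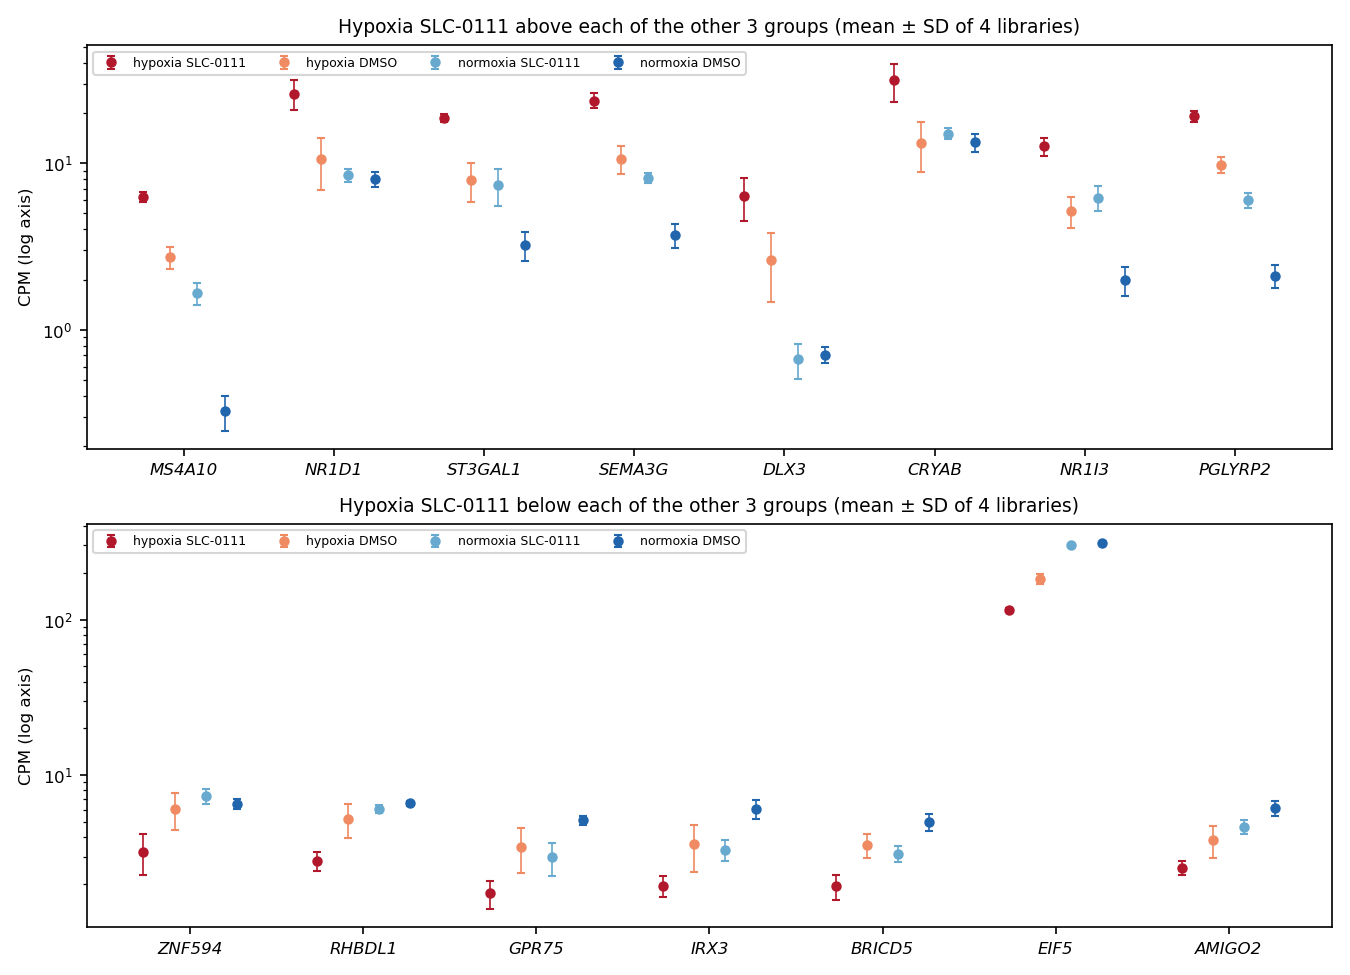
Mean CPM with SD (n = 4) on a log axis in the 4 groups for the 8 genes with the largest distance above each other group and 7 of those with the largest distance below. Hypoxia SLC-0111 lies highest in the top panel and lowest in the bottom panel, with 6.26 CPM for MS4A10 and 115 CPM for EIF5.

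The combined change was also set against the sum of the 2 single changes on the log2 scale, which asks whether the compound acts alike at both oxygen levels. It differed at 1102 genes (5.99%), above the sum at 527 and below it at 575, and this count was 691 without normoxia DMSO replicate 2, 708 without hypoxia SLC-0111 replicate 3, 2040 without hypoxia DMSO replicate 1 and 2953 without both hypoxia DMSO libraries that stand apart. GCM1, a transcription factor of the placenta, had 28.8, 26.7, 29.8 and 23.1 CPM in hypoxia SLC-0111, against averages of 9.06 CPM in hypoxia DMSO, 15.2 CPM in normoxia SLC-0111 and 13.8 CPM in normoxia DMSO (difference from the sum 1.38 ± 0.12, adjusted p = 4.32e-07). EPB41L3, a cytoskeletal linker, and CPB2, an inhibitor of fibrinolysis made in the liver, were lower in each other group than in normoxia DMSO. EPB41L3 averaged 3.27 CPM in hypoxia SLC-0111, against 1.70, 6.08 and 9.96 CPM in hypoxia DMSO, normoxia SLC-0111 and normoxia DMSO, and CPB2 averaged 22.8 CPM in hypoxia SLC-0111, against 16.9, 21.1 and 38.5 CPM. GPR83 was lower in normoxia SLC-0111 (10.4 CPM) than in the rest, with 22.8 CPM in hypoxia SLC-0111 and 19.1 CPM in normoxia DMSO. Its combined rise (0.25, adjusted p = 0.00393) was not called with library size alone (0.15, adjusted p = 0.098). SLC25A25, a mitochondrial carrier of ATP, averaged 31.6 CPM in hypoxia SLC-0111 and 14.8 CPM in normoxia DMSO, and its difference from the sum was 1.24 (adjusted p = 0.036). This call was lost when any 1 of the normoxia DMSO or normoxia SLC-0111 libraries was left out (adjusted p up to 0.0811). Leaving out hypoxia SLC-0111 replicate 1, 2 or 3 also ended it (0.074, 0.069 and 0.0751). The call was lost too with the replicate block (0.063), limma-voom (0.0502) and the protein-coding share as covariate (0.078), and without a low-count filter (0.0677). That of NR1D1 (1.18, adjusted p = 0.0278) was lost in several fits that left out a library, with the covariate (0.0757) and without a low-count filter (0.0686).

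The 6 genes named for the largest differences below the sum were each higher in hypoxia DMSO than in normoxia DMSO. TNFSF10, the death ligand TRAIL, had 54.1, 66.2, 55.4 and 60.3 CPM in hypoxia SLC-0111, against averages of 78.9 CPM in hypoxia DMSO, 6.16 CPM in normoxia SLC-0111 and 2.47 CPM in normoxia DMSO (difference -1.77 ± 0.15, adjusted p = 2.53e-07). AQP1, a water channel, averaged 79.3 CPM in hypoxia SLC-0111, against 115, 11.8 and 6.68 CPM in hypoxia DMSO, normoxia SLC-0111 and normoxia DMSO (difference -1.35 ± 0.13, adjusted p = 1.59e-06). PLEKHA2 averaged 15.0 CPM in hypoxia SLC-0111, with 23.1 CPM in hypoxia DMSO and 0.594 CPM in normoxia DMSO. The difference of PLEKHA2 (-1.37, adjusted p = 0.0125) was lost with limma-voom (0.0701). NREP, B3GNT4 and RNF224, at lower levels, had differences of -1.64, -1.31 and -1.31. For each of these 6 genes hypoxia SLC-0111 lay between normoxia DMSO and hypoxia DMSO.

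Markers of other cell types moved as well. The summed level of 12 leukocyte markers was 33.5 to 44.8 CPM in hypoxia SLC-0111 and 10.8 to 12.1 CPM in normoxia DMSO, and 4 of the 6 tested members rose. These were CSF1R, with 20.5 ± 4.05 CPM in hypoxia SLC-0111 and 2.32 ± 0.28 CPM in normoxia DMSO, CD3D, CD14 and ITGAM, at 14.5, 3.20 and 1.60 CPM in hypoxia SLC-0111 and 6.06, 0.868 and 0.519 CPM in normoxia DMSO. PTPRC, which all leukocytes carry, had 0 counts in hypoxia SLC-0111 and 1 in normoxia DMSO. Of 8 tested markers of fibroblasts and stellate cells 7 rose, among them COL1A2, RGS5, PDGFRA and LRAT (2.20-fold, 1.56-fold, 1.76-fold and 1.51-fold), and the 12 summed to 98.3 to 108.0 CPM in hypoxia SLC-0111 and 74.9 to 80.2 CPM in normoxia DMSO. DCN had 1 count in each group. The 12 endothelial markers summed to 52.6 to 58.0 CPM in hypoxia SLC-0111 and 55.2 to 60.4 CPM in normoxia DMSO. Of the 3 tested, CDH5 rose, with 174 counts in hypoxia SLC-0111 against 14 in normoxia DMSO, STAB2 fell, with 18 counts in hypoxia SLC-0111 against 78 in normoxia DMSO (log2 fold change -2.27, adjusted p = 1.95e-05), and PECAM1 was not called. CLDN5, not tested, had 8 counts in hypoxia SLC-0111 and 48 in normoxia DMSO, while LYVE1 and CLEC4G had 0 in both. The part of other cells in the results above was not tested.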

How the data were processed

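Total RNA of 16 HUH6 libraries was sequenced, 4 in each of 4 groups. The deposited table holds raw counts of reads per gene for 58735 genes. Per the submitters' processing notes, the authors used HISAT2 or HISAT, HTSeq, MultiQC 1.10.1, edgeR 3.4.0 and the GRCh38 genome. No strand setting is stated in the sources, so overlapping genes on opposite strands may share reads. The column names of 2 libraries, 1 each in hypoxia DMSO and normoxia SLC-0111, conflict with the labels on the replicate number but not on the group, and these are called unnumbered. The chi-square per degree of freedom between libraries of a group was 2.27 to 71.54, so none was a copy.

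Differences in these counts were then fitted by edgeR 4.0.16 under R 4.3.3 (filterByExpr by group, TMM, robust quasi-likelihood, 1 mean per group, 12 residual degrees of freedom, common biological coefficient of variation 0.074). Contrasts were hypoxia SLC-0111 minus normoxia DMSO, and the difference between the SLC-0111 effects at both oxygen levels, which is the combined change minus the sum of the single changes. A joint test took the largest p of hypoxia SLC-0111 against each other group where all 3 differences had 1 sign. Ratios of few counts use group totals without TMM. Log2 CPM used a prior count of 2.

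The members and 34 lists (732 entries) were chosen with earlier results of these data known. By rule, named genes were CA9 and CA12, up to 12 largest rises and 12 falls (protein-coding, at least 5 CPM, no overlap), up to 8 above and 8 below each other group, up to 6 above and 6 below the sum, and up to 4 called members per list with at least 1 CPM. Withheld genes are not reported here. Others were singled out after their values were seen: VEGFA, PDK1, NDRG1, BNIP3, ADM, DDIT4, ANGPTL4, HIF1A, INSIG1, HMGCS1, SREBF2, FASN, GPAM, PLIN2, ATF4, DDIT3, SLC7A11, MKI67, TOP2A, PLK1, MYC, AXIN2, GLUL, MT1F, CA4, HSPA5, PGK1, SLC2A2, KLF4, FGA, FGB, DLK1, EDEM1, DNAJB9, LDHB, PFKM, PLIN3, PLIN4 and PLIN5, and of the cell type markers PTPRC, DCN, STAB2, CLDN5, PECAM1, LYVE1 and CLEC4G. On simulated data with 200 genes changed, the combined contrast recovered 90 of 100 genes at a log2 change of 1 and 77 of 100 at 0.5, with 4 other calls among 18385 genes. The joint test recovered 86 and 65, with 1 other call, and the difference from the sum 83 and 60, with 14. Only hypoxia SLC-0111 was changed there, and all other genes kept 1 mean over the groups. The real groups differ at far more genes, so these rates need not hold for them. Alternatives were RLE scaling, library size alone, 2 other filters, DESeq2 1.42.0, limma-voom (limma 3.58.1), the protein-coding share as covariate, the 8 libraries alone, the replicate number as a block, and each library left out. Fits without both hypoxia DMSO libraries that stand apart were added after seeing the data. Promoters and gene coordinates came from RefSeq (GRCh38.p14) and GENCODE release 29.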

Additional observations from a re-analysis of the deposited data

Results flagged for a closer look

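Of 195 named genes, the highest or lowest of the 4 libraries stood apart from the others by Dixon's test in 27 of 390 groups examined, where chance gives about 1 in 20. Of these, 14 were in hypoxia SLC-0111 and 13 in normoxia DMSO. Hypoxia SLC-0111 replicate 4, the deepest library, was apart 12 times and was the lowest of its group in 11 of them, and normoxia DMSO replicate 1 was apart 8 times. The lowest values in hypoxia SLC-0111 replicate 4 were those of DLX3 (3.6 CPM, others 6.99 to 7.48 CPM), BHLHE40 (213 CPM, others 300 to 306 CPM), ATF3 (99.7 CPM, others 147 to 155 CPM) and C3 (76.8 CPM, others 85.6 to 86.2 CPM). The same library was the lowest of its group for PCK1 (12.7 CPM, others 13.6 to 13.6 CPM), LGR5 (54.9 CPM, others 59.3 to 60 CPM), JUN (513 CPM, others 714 to 733 CPM) and NFIL3 (68.8 CPM, others 90.3 to 91.1 CPM). It was also the lowest for KDM6B (174 CPM, others 195 to 195 CPM), VEGFA (161 CPM, others 203 to 210 CPM) and PLIN2 (107 CPM, others 139 to 143 CPM). It was the highest for MAT2A (38.1 CPM, others 28.9 to 29.7 CPM). Hypoxia SLC-0111 replicate 1 was the lowest of its group for BHLHE41 (0.671 CPM, others 1.14 to 1.19 CPM). Hypoxia SLC-0111 replicate 2 was the highest of its group for GNRH2 (27.7 CPM, others 24.4 to 24.6 CPM). Normoxia DMSO replicate 1 was the lowest of its group for CA4 (14.5 CPM, others 16.7 to 17 CPM). Normoxia DMSO replicate 1 was the highest of its group for RNF224 (2.17 CPM, others 1.38 to 1.5 CPM), CITED2 (158 CPM, others 148 to 149 CPM), ATP5F1B (710 CPM, others 680 to 683 CPM) and TBX3 (281 CPM, others 269 to 271 CPM). Normoxia DMSO replicate 1 was the highest of its group for CCN1 (79.9 CPM, others 72 to 72.6 CPM), DDIT3 (7.5 CPM, others 6.39 to 6.55 CPM) and PLK1 (94.8 CPM, others 87.9 to 88.4 CPM). Normoxia DMSO replicate 2 was the lowest of its group for GPR83 (18.3 CPM, others 19.3 to 19.4 CPM). Normoxia DMSO replicate 2 was the highest of its group for PCK1 (3.3 CPM, others 2.73 to 2.81 CPM). Normoxia DMSO replicate 3 was the lowest of its group for MT1X (0.385 CPM, others 0.459 to 0.469 CPM). Normoxia DMSO replicate 4 was the lowest of its group for ST3GAL1 (2.26 CPM, others 3.49 to 3.62 CPM). Normoxia DMSO replicate 4 was the highest of its group for DLX3 (0.825 CPM, others 0.652 to 0.682 CPM).

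The log2 effect of SLC-0111 in hypoxia minus that in normoxia, which equals the combined change minus the sum of the single changes, differed from 0 for 43 of the named genes by edgeR's quasi-likelihood test, above 0 for 15 and below 0 for 28. It was above 0 for EPB41L3 (1.53, adjusted p = 0.000129), GCM1 (1.38, adjusted p = 4.32e-07), CPB2 (1.30, adjusted p = 1.29e-05), SLC25A25 (1.24, adjusted p = 0.036) and NR1D1 (1.18, adjusted p = 0.0278). Further differences above 0 were those of GPR83 (1.05, adjusted p = 1.92e-06), GPAM (0.81, adjusted p = 8.78e-05), THBS1 (0.71, adjusted p = 4.28e-05), CA4 (0.65, adjusted p = 0.0036) and LGR5 (0.63, adjusted p = 3.36e-05). Further differences above 0 were those of ALB (0.62, adjusted p = 0.00373), PLK1 (0.38, adjusted p = 0.0069), AXIN2 (0.36, adjusted p = 0.00481), HSPH1 (0.35, adjusted p = 0.00475) and CENPA (0.33, adjusted p = 0.0415). It was below 0 for TNFSF10 (-1.77, adjusted p = 2.53e-07), NREP (-1.64, adjusted p = 0.00167), PLEKHA2 (-1.37, adjusted p = 0.0125), AQP1 (-1.35, adjusted p = 1.59e-06) and RNF224 (-1.31, adjusted p = 0.00139). Further differences below 0 were those of B3GNT4 (-1.31, adjusted p = 0.0036), FGD5 (-1.29, adjusted p = 0.023), MS4A10 (-1.10, adjusted p = 0.0122), CDKN2B (-1.04, adjusted p = 0.038) and ZNF594 (-1.0, adjusted p = 0.0219). Further differences below 0 were those of STC2 (-1.0, adjusted p = 0.000954), CA12 (-0.95, adjusted p = 0.00127), GNRH2 (-0.90, adjusted p = 0.0037), LOX (-0.78, adjusted p = 0.0173) and COL1A2 (-0.72, adjusted p = 0.0152). Further differences below 0 were those of RHBDL1 (-0.64, adjusted p = 0.0328), EIF5 (-0.64, adjusted p = 2.77e-06), LCN15 (-0.63, adjusted p = 0.0117), SLC7A11 (-0.63, adjusted p = 0.000485) and ABCC3 (-0.61, adjusted p = 0.00475). Further differences below 0 were those of BNIP3 (-0.54, adjusted p = 0.0049), CITED2 (-0.52, adjusted p = 0.0036), PGLYRP2 (-0.51, adjusted p = 0.0468), AGPAT2 (-0.46, adjusted p = 0.0103) and C3 (-0.43, adjusted p = 0.000755). Further differences below 0 were those of PGK1 (-0.33, adjusted p = 0.0071), VTN (-0.31, adjusted p = 0.025) and HNF4A (-0.30, adjusted p = 0.0147).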

How the results depend on the processing

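The count of genes called between hypoxia SLC-0111 and normoxia DMSO (10324) was 9394 to 10710 when a library was left out, 9943 with DESeq2, 10405 with limma-voom and 11063 without both hypoxia DMSO libraries that stand apart. The count at least 2-fold (2154) was 2132 to 2356 with a library left out, 3035 without a filter and 1416 (1102 higher, 314 lower) with a filter at 1 CPM in 4 libraries, which tests fewer genes. The count beyond each other group (493) was 263 to 711 with a library left out, 738 without a filter and 286 without both of these hypoxia DMSO libraries. The count of differences from the sum (1102) was 691 to 2040 with a library left out and 2953 without both. With library size alone, the split beyond each other group was 221 above and 211 below, against 363 and 130.

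Same-numbered libraries of hypoxia SLC-0111 and normoxia DMSO deviated from their group means with correlations of 0.14, 0.15, -0.02 and 0.30. As not every pair exceeded 0.1, the numbers were not taken to pair them, although hypoxia SLC-0111 replicates 1, 2 and 4 each correlated best with their own number (replicate 3 with number 1, 0.23), a hint from the data and not from the design. With the replicate number as a block the called count was 10965 over 14 libraries (11287 in the 8 compared), the count beyond each other group 762 and the count of differences from the sum 1881. The cause of these shifts was not tested.

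Of 5939 alternative values of 222 named gene results, 5856 kept direction and call, 69 lost the call, 11 gained it and 3 turned. The 3 that turned were of ATF4, whose value (-0.03 with all libraries) ran between -0.06 and 0.02 with a library left out and was called in none of these fits, at 0.00 (without hypoxia SLC-0111 replicate 2), 0.02 (without replicate 4) and 0.00 (without normoxia DMSO replicate 1). Of the 195 combined changes, 4 lost their call somewhere, those of GPR83, ARNT2, SREBF2 and MYC. Of the 34 lists, 1 moved its count of members called between hypoxia SLC-0111 and normoxia DMSO by over 1.5 times. It was the endothelial markers, with 0 of them called at 1 CPM in 4 libraries. Counts of list members beyond each other group, or above or below the sum, were not examined in the alternatives. Depth limits the low genes: in normoxia DMSO a count of 0 allows up to 0.131 CPM.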
